A study of Mus musculus with 14 samples.

Results

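The genes described here handle lysophosphatidic acid (LPA): the phosphatases Plpp1, Plpp2 and Plpp3, the LPA-producing enzymes Enpp2 and Liph, and the receptors Lpar1, Lpar2, Lpar3, Lpar4 and Lpar6. Each gene was found by its symbol among 45141 probe sets. Where several carried it, the one chosen by the highest mean over the 14 arrays stood for the gene. That gave 9 of the 10 genes, out of 17097 measured, from 19 probe sets. Enpp2 was paired with no probe set in the platform table used, so it was not analysed here. The list itself was selected on results of these arrays, among them the difference of Plpp1 between wild-type bulge and interfollicular cells and that of Plpp3 between mutant and wild-type bulge cells. Those 2 differences, and the differences of the same genes that share arrays with them, are given as descriptions, without a test.

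LPA is a small signalling lipid. Outside cells it is made by autotaxin, the product of Enpp2, and at the cell membrane by the phospholipase encoded by Liph. It acts through G protein-coupled receptors, of which Lpar1, Lpar2 and Lpar3 form one family and Lpar4 and Lpar6 belong to another, and it is dephosphorylated by the membrane phosphatases encoded by Plpp1, Plpp2 and Plpp3, which also act on other lipid phosphates. In the hair follicle, LIPH and LPAR6 are known from inherited woolly hair and hypotrichosis, in which hair growth is impaired.

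All arrays held RNA from unchallenged epidermis of 15-week-old mice. Their G9a, which methylates lysine 9 of histone H3 and is the product of Ehmt2, was either intact (WT) or conditionally knocked out (cKO). Cells of the bulge, the stem cell region of the hair follicle, gave 3 WT and 4 cKO arrays, and cells of the interfollicular epidermis (IFE) gave 3 WT and 4 cKO arrays. The promoter that drives the deletion, the strain, the way the compartments were separated and whether replicates were separate animals are not stated in the sources used, so p-values measure the spread between these samples, which may be technical.

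Promoter windows are shown for 4 of the genes that were higher in bulge than in IFE cells, because these genes shared the direction of that difference. A window held the 250 bases upstream of a RefSeq transcription start (mouse build GRCm38.p6), and 8 of the 10 genes matched one, all but Plpp1 and Enpp2. They are written 5′ to 3′ on the strand of the gene, and capitals mark a match to one of the motifs searched on both strands. Plpp3 lies at chr4:105157097-105157346 on the plus strand, Lpar1 at chr4:58499404-58499653 on the minus strand, Lpar3 at chr3:146220711-146220960 on the plus strand and Lpar6 at chr14:73237641-73237890 on the plus strand.
Plpp3: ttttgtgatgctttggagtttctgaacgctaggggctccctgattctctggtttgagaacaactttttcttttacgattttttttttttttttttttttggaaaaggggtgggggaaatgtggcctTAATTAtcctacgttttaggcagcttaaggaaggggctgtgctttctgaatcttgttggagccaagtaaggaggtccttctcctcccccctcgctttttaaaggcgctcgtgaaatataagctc
Lpar1: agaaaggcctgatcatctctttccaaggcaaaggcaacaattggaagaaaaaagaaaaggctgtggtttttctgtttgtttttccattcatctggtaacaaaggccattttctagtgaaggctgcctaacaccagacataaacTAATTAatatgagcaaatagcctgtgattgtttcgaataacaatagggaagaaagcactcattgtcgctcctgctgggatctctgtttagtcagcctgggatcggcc
Lpar3: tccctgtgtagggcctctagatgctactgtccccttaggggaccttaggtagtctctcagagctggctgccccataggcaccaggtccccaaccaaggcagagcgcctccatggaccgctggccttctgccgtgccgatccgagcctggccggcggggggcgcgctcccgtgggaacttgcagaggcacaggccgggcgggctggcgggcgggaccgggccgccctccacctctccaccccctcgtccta
Lpar6: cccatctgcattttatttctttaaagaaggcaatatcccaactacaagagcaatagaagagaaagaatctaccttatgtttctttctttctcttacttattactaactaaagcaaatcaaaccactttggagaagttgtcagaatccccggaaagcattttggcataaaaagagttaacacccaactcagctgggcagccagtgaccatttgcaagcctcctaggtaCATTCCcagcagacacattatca

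None of the motifs searched was in all 4 windows. TAATTA, a core of homeodomain sites, was in the Plpp3 window 124 to 119 bases before the start and in the Lpar1 window shown 107 to 102 bases before it. Lpar1 has 3 windows, and this one is shown because it alone held a match; 4.84% of 32851 promoter windows of the same length held it. CATTCC, a core of TEAD sites, was in the Lpar6 window 23 to 18 bases before the start, against 12.6% of all windows. TGANTCA, a core of AP-1 sites, was in none of the 4 windows but in that of Lpar2, and 6.75% of all windows held it. CTTTGA, a core of TCF/LEF sites, was in no window of these genes, against 13.8% of all. The Lpar3 window had 17 CG pairs and a G and C content of 69.6%, the Plpp3 window had 6 pairs and the Lpar6 window 1. The Lpar1 window shown had 3, and the others of Lpar1 had 28 and 11. The median over all windows was 6.

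Signals are on the log2 scale, so a difference of 1 is a doubling, and they cannot be compared between genes, since each probe set has its own response. Olfactory receptor genes, most of which are known from the nose, served as a gauge of unspecific signal: the 95th percentile of their 44 probe sets was 5.71 (highest 6.91), and a signal not above it is called dim. Plpp2, Plpp3, Lpar1, Lpar2 and Lpar6 were above it on all 14 arrays, Plpp1 on 11, Lpar3 on 6, Liph on 4 and Lpar4 on 0.

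The labels held for G9a and for the compartments, but the cKO arrays of a compartment were not alike, most of all in bulge. One Ehmt2 probe set read 9.51 to 9.78 on WT arrays and 5.85 to 6.09 on cKO arrays. The other read 7.84 to 8.04 on all, and where the probes lie relative to the deleted part is not stated. All 8 bulge markers were above the dim level in bulge WT cells, and Cd34, Lgr5 and Lhx2 were dim in IFE WT cells. On the first principal component, which held 72.5% of the variance, bulge cKO replicate 2 lay at -6.9 and replicate 3 at -11.3, between the other bulge arrays (-48.2 to -36.7) and the IFE arrays (23 to 40.1). IFE cKO replicates 2 and 3 lay at 23.3 and 23, and replicates 1 and 4 at 40.1 and 37.4. Cd34 was above the dim level on IFE cKO replicates 2 and 3 (6.6 and 6.5) but not on 1 and 4 (5.1 and 5.2). The mean of 7 suprabasal keratinocyte markers read 8.32, 10.25, 9.90 and 9.48 on the bulge cKO arrays in order of replicate number, against 7.80 to 8.43 in bulge WT cells. The mean of 8 bulge markers read 10.01, 9.26, 9.42 and 10.19 on them, against 10.21 to 10.32 in WT. The mean of 5 of 6 T cell markers was 5.48 to 6.32 in bulge cKO and 5.09 to 5.37 in bulge WT cells. That of 6 Langerhans and leukocyte markers was 6.32 to 7.08 against 5.75 to 5.98. The mean of 7 fibroblast markers was 4.99 to 5.67 against 4.85 to 5.05, with Col1a2, Pdgfra, Lum and Dpt dim in all groups. That of 4 of 6 sebocyte markers was 4.98 to 5.94 against 4.84 to 5.13, with Mc5r, Elovl3 and Cidea dim in all groups. The dermal papilla and endothelial lists had at most 1 marker above the dim level in any group. In such bulk samples, fewer cells of a type and less RNA per cell cannot be told apart.

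In WT mice, bulge cells had more signal than IFE cells for the phosphatases Plpp1 and Plpp3 and for the receptors Lpar1, Lpar3 and Lpar6, and less for Liph. Plpp2, Lpar2 and Lpar4 did not pass the test. Plpp1 and Plpp3, whose values the choice of genes used, are left out of the count. Of the other 7 genes, 3 were called higher and 1 lower in bulge at a limma adjusted p under 0.05. Of all genes, 18.4% were called higher in bulge, 16.6% lower and 35.1% either way. The differences of the 7 genes were 2.41 for Lpar3, 1.59 for Lpar1, 1.30 for Lpar6 and 0.002 for Lpar4. They were -0.09 for Lpar2, -0.14 for Plpp2 and -0.57 for Liph, and the median over all genes was -0.01. Under median centring, 42.5% of all called genes were higher in bulge rather than 52.6%, and the calls of the 7 genes stayed as they were.

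**Figure D1:**
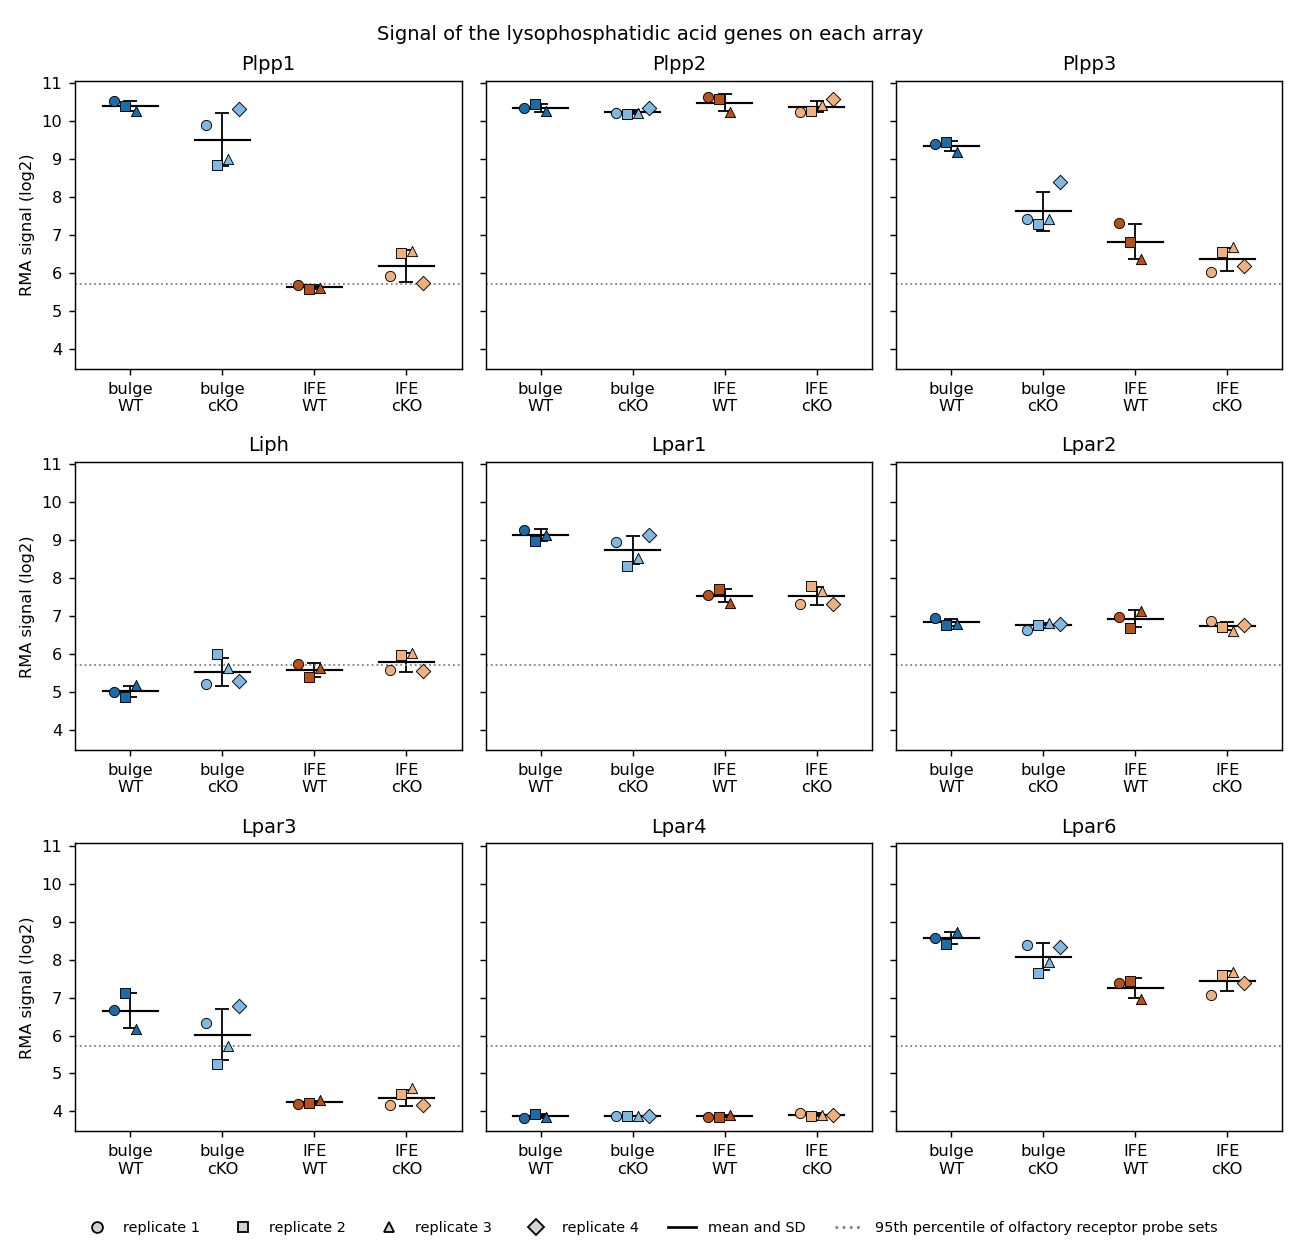
RMA signal (log2) of the 9 measured genes on each of the 14 arrays, by compartment and genotype. Symbols mark the replicate, bars the mean and SD, and the dotted line the dim level of 5.71. Plpp1, Plpp3, Lpar1, Lpar3 and Lpar6 were higher on every bulge WT array than on any IFE WT array, and Lpar4 stayed between 3.83 and 3.96.

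Among the receptors, Lpar1, the first LPA receptor to be identified, read 9.29, 8.98 and 9.14 in bulge WT cells and 7.56, 7.72 and 7.36 in IFE WT cells. The bulge arrays were all above the IFE arrays. The difference was 1.59 ± 0.20 (SE), a fold of 3.00 (limma adjusted p = 9.209e-05). Without G9a the order of the compartments was the same: Lpar1 read 8.96, 8.33, 8.54 and 9.14 in bulge cKO and 7.34, 7.79, 7.67 and 7.32 in IFE cKO cells. The compartments again did not overlap, and differed by 1.21 ± 0.17 (adjusted p = 0.0004608).

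Lpar3, a receptor best known from its role in embryo implantation, was dim in IFE cells of both genotypes. It read 6.68, 7.11 and 6.17 in bulge WT cells against 4.20, 4.24 and 4.29 in IFE WT cells, and the groups did not overlap. The measured difference of 2.41 ± 0.33 passed the test (adjusted p = 0.0001593). Since the IFE signals were dim, no fold is given. The bulge WT mean of 6.65 was above the dim level but under the highest olfactory receptor probe set (6.91). In cKO mice it read 6.32, 5.25, 5.71 and 6.79 in bulge and 4.17, 4.46, 4.61 and 4.18 in IFE cells. Bulge cKO replicates 2 and 3 were the lowest bulge arrays, replicate 2 under the dim level and replicate 3 at it. The compartments differed by 1.66 ± 0.28 (adjusted p = 0.001249), and the bulge cKO mean was 6.02.

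Lpar6 encodes the receptor that in hair follicles responds to LPA made by LIPH. It read 8.56, 8.40 and 8.72 in bulge WT and 7.37, 7.45 and 6.95 in IFE WT cells, with no overlap and a difference of 1.30 ± 0.21 (adjusted p = 0.0004864). In cKO mice it read 8.39, 7.66, 7.93 and 8.34 in bulge and 7.07, 7.60, 7.67 and 7.38 in IFE cells. Bulge cKO replicate 2 lay just under IFE cKO replicate 3, so the groups overlapped. The difference of 0.65 ± 0.18 passed the test (adjusted p = 0.01691). It did not pass without bulge cKO replicate 1 (0.54, adjusted p = 0.0517) or without IFE cKO replicate 1 (0.53, adjusted p = 0.0503). Lpar6 lies within the span of Rb1, whose own probe set differed by 0.29 ± 0.15 between the WT compartments (adjusted p = 0.1499) and by 0.01 ± 0.13 between the cKO compartments.

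Lpar2 did not pass the test between compartments in either genotype, and Lpar4 was too dim to compare. Lpar2, which couples to several G proteins like Lpar1, ranged from 6.78 to 6.95 in bulge WT, 6.65 to 6.82 in bulge cKO, 6.70 to 7.14 in IFE WT and 6.61 to 6.87 in IFE cKO cells. Its WT compartments differed by -0.09 with a 95% interval of -0.31 to 0.13 (adjusted p = 0.526). Lpar4 was dim on all arrays with all 3 of its probe sets.

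Liph was the producing enzyme that could be followed, and its signal was near the dim level. It read 5.003, 4.89 and 5.19 in bulge WT cells and 5.76, 5.40 and 5.64 in IFE WT cells. Every bulge array was below every IFE array, and only IFE WT replicate 1 of the 6 was above the dim level. The difference was -0.57 ± 0.20 (adjusted p = 0.04161), and since both means were dim no fold is given. Leaving out bulge WT replicate 1, bulge WT replicate 2, IFE WT replicate 1, IFE WT replicate 3 or bulge cKO replicate 3 gave differences of -0.56, -0.50, -0.49, -0.55 and -0.57 that did not pass (adjusted p = 0.09863, 0.1261, 0.1275, 0.09655 and 0.05272). In cKO mice the compartments differed by -0.25 ± 0.17 (adjusted p = 0.2928).

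The phosphatases were not alike in their levels across compartments. Plpp1, which encodes a lipid phosphate phosphatase of the cell surface, read 10.54, 10.41 and 10.28 in bulge WT and 5.69, 5.60 and 5.61 in IFE WT cells. That difference of 4.78 ± 0.34 was the 10th highest of 17097 genes and is a description, since it was among the results known when the genes were chosen. All IFE WT signals were dim, so no fold is given for the WT difference. The cKO arrays, which that Plpp1 difference did not use, read 9.89, 8.84, 9.01 and 10.33 in bulge and 5.91, 6.54, 6.58 and 5.75 in IFE cells. The bulge cKO arrays did enter the choice of genes through Plpp3. There the difference was 3.32 ± 0.29, a fold of 10.0 (limma adjusted p = 4.07e-05). Since Plpp1 was known to be high in WT bulge cells, this test is not independent of the choice.

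Plpp3, a phosphatase also known from blood vessel and embryonic development, read 9.40, 9.46 and 9.20 in bulge WT and 7.31, 6.83 and 6.37 in IFE WT cells. The groups did not overlap and differed by 2.52 ± 0.29, a fold of 5.74. In cKO mice the compartments differed by 1.27 ± 0.25, again without overlap. Both values share bulge arrays with the Plpp3 difference known beforehand and are descriptions. Plpp2, the remaining phosphatase, read 10.26 to 10.45 in bulge WT and 10.24 to 10.65 in IFE WT cells. Those groups overlapped, and the difference was -0.14 with a 95% interval of -0.38 to 0.09 (adjusted p = 0.3425). Without IFE WT replicate 3 it was -0.27 and passed (adjusted p = 0.04845).

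In cKO mice, leaving Plpp3 aside, 4 of 8 genes were called higher in bulge than in IFE cells and 0 lower. They were Plpp1, Lpar1, Lpar3 and Lpar6. Plpp1 is not independent of the choice of genes, since its WT difference between the same compartments was known. Of all genes, 17.6% were called higher and 32.1% either way. Plpp3 was higher too, as a description. The genes not called differed by -0.25 for Liph, -0.14 for Plpp2, -0.04 for Lpar4 and 0.02 for Lpar2. The median over all genes was 0.03. Without bulge cKO replicates 2 and 3 the compartments differed by 3.91 for Plpp1, 1.54 for Plpp3, 1.52 for Lpar1, 2.20 for Lpar3 and 0.93 for Lpar6. All 5 were still higher in bulge, and the difference of Liph was -0.54 and passed too (adjusted p = 0.02584). Median centring gave 39.6% of called genes higher in bulge in place of 54.7%, and the same 4 calls among the 8 genes.

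**Figure D2:**
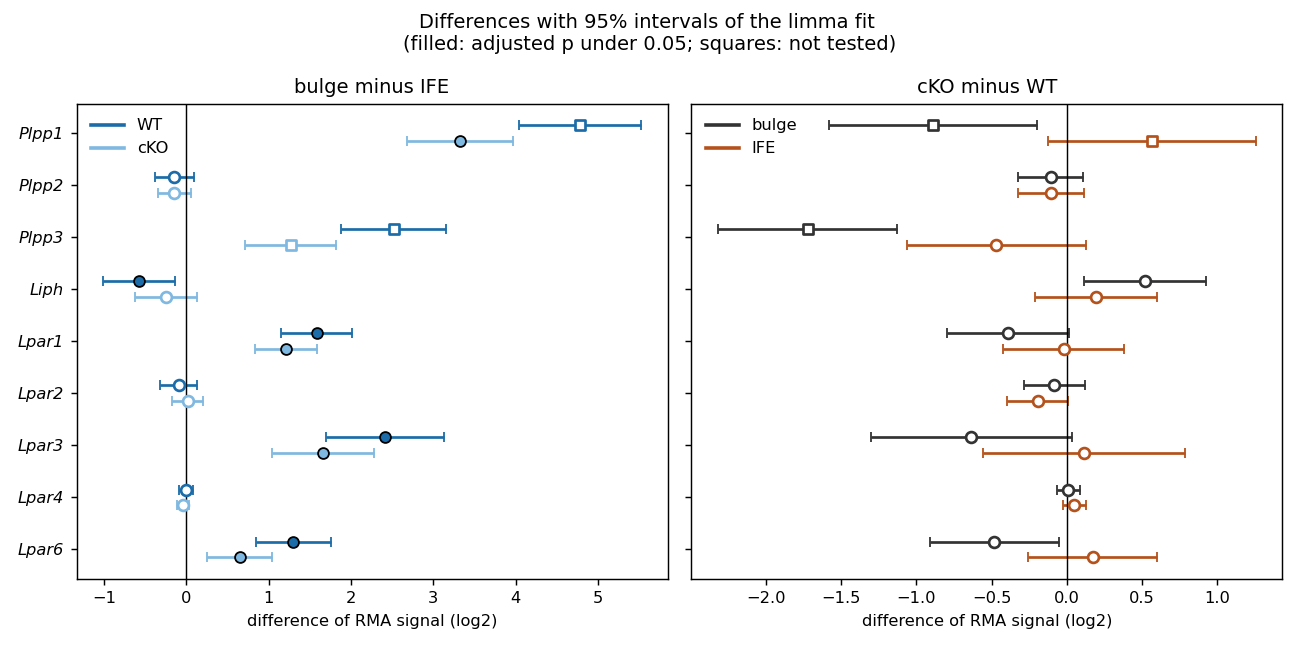
Differences of RMA signal (log2) for the 9 genes with 95% intervals of the limma fit, bulge minus IFE on the left and cKO minus WT on the right; filled circles have an adjusted p under 0.05, and squares are differences given without a test because the choice of genes used their arrays. The right panel has no filled circle, and its lowest point is Plpp3 in bulge at -1.72.

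Loss of G9a in bulge cells went with a lower Plpp3 signal. Plpp3 read 7.42, 7.29, 7.43 and 8.39 on the bulge cKO arrays against 9.40, 9.46 and 9.20 in WT. Every cKO array was below every WT array, and replicate 4 was the highest of the cKO arrays. The difference of -1.72 ± 0.27, a 3.30-fold lower signal, was the 4th lowest of 17097 genes and is a description, because it was known when the genes were chosen. Without bulge cKO replicates 2 and 3 it was -1.45.

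For the other genes the same comparison gave smaller differences. Plpp1 differed by -0.89 ± 0.32, a description since its bulge WT arrays were used in the choice. None of the 7 genes tested passed. Lpar3 differed by -0.64 ± 0.31 (adjusted p = 0.2144), Lpar6 by -0.48 ± 0.20 (adjusted p = 0.1527) and Lpar1 by -0.39 ± 0.19 (adjusted p = 0.207). Liph differed the other way, by 0.52 ± 0.19 (adjusted p = 0.1148). For Lpar6 and Liph the groups did not overlap, and for Plpp1, Lpar1 and Lpar3 they did. The share of all genes whose groups do not overlap was not counted, so overlap only describes the arrays, here and elsewhere. Plpp2 differed by -0.11 with a 95% interval of -0.33 to 0.11, and Lpar2 by -0.08 with an interval of -0.29 to 0.12. Without bulge cKO replicates 2 and 3 these differences shrank to -0.30 for Plpp1, -0.10 for Lpar3, -0.20 for Lpar6, -0.08 for Lpar1 and 0.23 for Liph. Without bulge cKO replicate 4 they were -1.16 for Plpp1 and -0.89 for Lpar3, which then passed (adjusted p = 0.04568). Leaving Plpp1 and Plpp3 aside, 0 of 7 genes were called in limma, where 1.85% of all genes were called lower in cKO and 3.84% either way. At an unadjusted p under 0.05 there were 2 of 7, Liph and Lpar6, against 25.7% of all genes. Among all called genes the share higher in cKO was 51.7%, or 41.5% under median centring.

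The bulge cKO arrays with the lowest bulge markers also had the lowest signals of Plpp1, Lpar1, Lpar3 and Lpar6. Each array was placed between the WT means of its gene, with IFE WT at 0% and bulge WT at 100%. On bulge cKO replicates 2 and 3, Plpp1 lay at 67.2% and 70.8%, Lpar1 at 49.2% and 62.6%, Lpar3 at 41.8% and 61.1%, and Lpar6 at 30.4% and 51.7%. The median of the 8 bulge markers on those arrays was 66.2% and 71.3%, and that of 659 other genes at least 1 higher in bulge WT cells 49.0% and 58.9%. On replicates 1 and 4 these 4 genes lay between 82.9% and 106%, the bulge markers at 95.1% and 101% and the 659 genes at 83.4% and 97.5%. Plpp3 lay at 23.1%, 18%, 23.8% and 61.7% on replicates 1 to 4, below both medians on all 4 arrays. These Plpp3 positions rescale the lower signal known when the genes were chosen, so they are a description. The part of the cell mixture in these values was not tested.

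**Figure D3:**
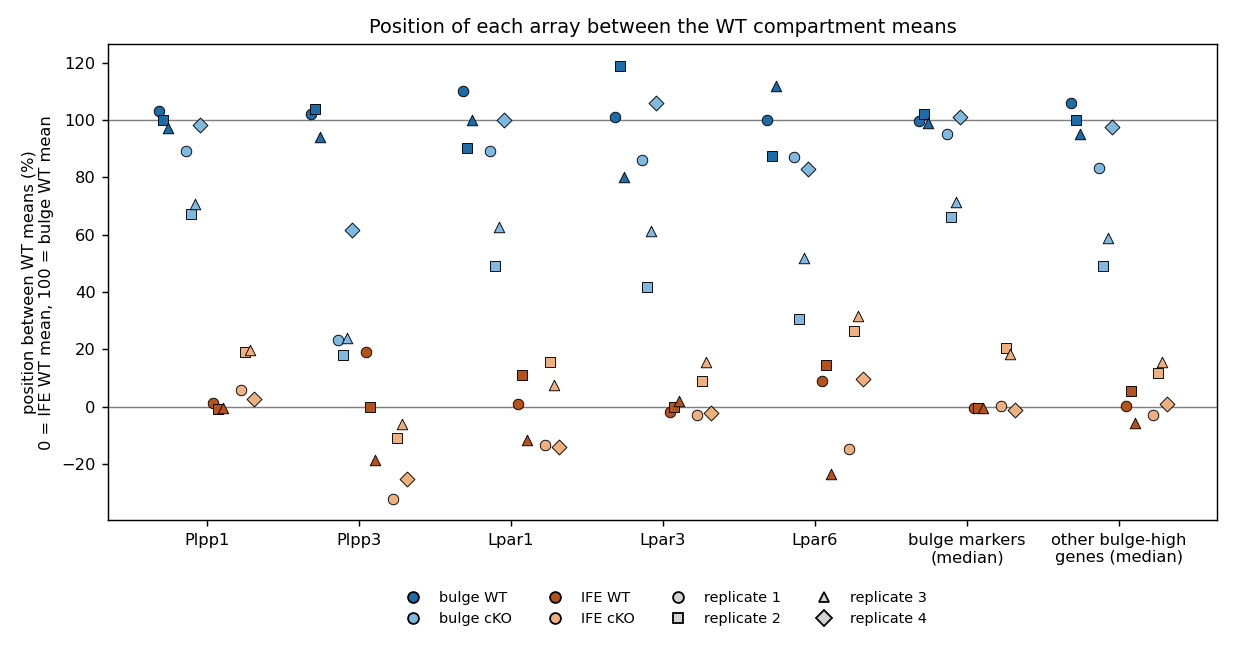
Position of each array between the WT means of a gene, in percent, with 0 at the IFE WT mean and 100 at the bulge WT mean, for 5 genes, the median of 8 bulge markers and the median of 659 other genes higher in bulge WT cells. Plpp3 on bulge cKO replicates 1, 2 and 3 lay between 18% and 23.8%, where Plpp1 on the same arrays lay between 67.2% and 89.2%. The Plpp3 positions rescale a difference known when the genes were chosen and are a description.

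In IFE cells, Plpp1 was left out of the count of the 9 genes. Loss of G9a moved none of the others past the threshold, where 0.497% of all genes were called by limma. At an unadjusted p under 0.05 there were 0 of these others, against 11% of all genes. Plpp1 read 5.91, 6.54, 6.58 and 5.75 in cKO against 5.69, 5.60 and 5.61 in WT cells, a difference of 0.56 ± 0.32, given without a test since its IFE WT arrays were used in the choice. Every cKO array was above every WT array, by most on cKO replicates 2 and 3. On those same arrays the bulge marker mean was 7.58 and 7.57, against 6.90 and 6.91 on replicates 4 and 1 and 6.91 to 6.92 in WT; the part of those cells in the Plpp1 value was not tested. Plpp3 read 6.02, 6.56, 6.68 and 6.20 in cKO against 7.31, 6.83 and 6.37 in WT, with overlap, a difference of -0.47 ± 0.27 (adjusted p = 0.5871) and a 95% interval of -1.07 to 0.13. Without cKO replicates 2 and 3 of both compartments, Plpp1 differed by 0.20 and Plpp3 by -0.72.

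Whether the effect of G9a loss differed between compartments was tested directly, leaving aside Plpp1 and Plpp3, whose known differences are part of it. In limma 0 of the other 7 genes passed, where 0.105% of all genes did, and 1 of 7, Lpar6, had an unadjusted p under 0.05, against 14.1% of all genes. Its difference of effects was -0.65 ± 0.28 (adjusted p = 0.3272). As descriptions, the differences of effects were -1.46 ± 0.45 for Plpp1 and -1.25 ± 0.39 for Plpp3. Without bulge cKO replicate 4 they were -1.73 and -1.51. Without cKO replicates 2 and 3 of both compartments they were -0.50 and -0.73, and that of Lpar6 was -0.16. Plpp3 had the same sign of difference in both compartments, and Plpp1 had opposite signs.

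The other probe sets bore on how far a value belongs to its gene. For Plpp1 a second probe set read 10.31 in bulge WT, 9.41 in bulge cKO, 5.20 in IFE WT and 5.90 in IFE cKO cells on average, close to the first, while another stayed dim in all groups. The second Plpp3 probe set had means of 9.01, 7.48, 6.61 and 6.28 in the same order of groups, and its bulge cKO difference was -1.53. For Lpar1 one further probe set followed the first, with means of 7.54, 7.18, 5.65 and 5.85. Another rose less from IFE to bulge, by 0.51 in WT, and differed by 0.11 between cKO and WT in bulge, where the first gave -0.39. The second Liph probe set was dim in every group and differed by 0.19 between bulge cKO and WT (adjusted p = 0.02699 over all probe sets). Another 2 probe sets, paired with both Plpp1 and Mtrex, read 3.95 to 4.69 and were left out.

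**Figure D4:**
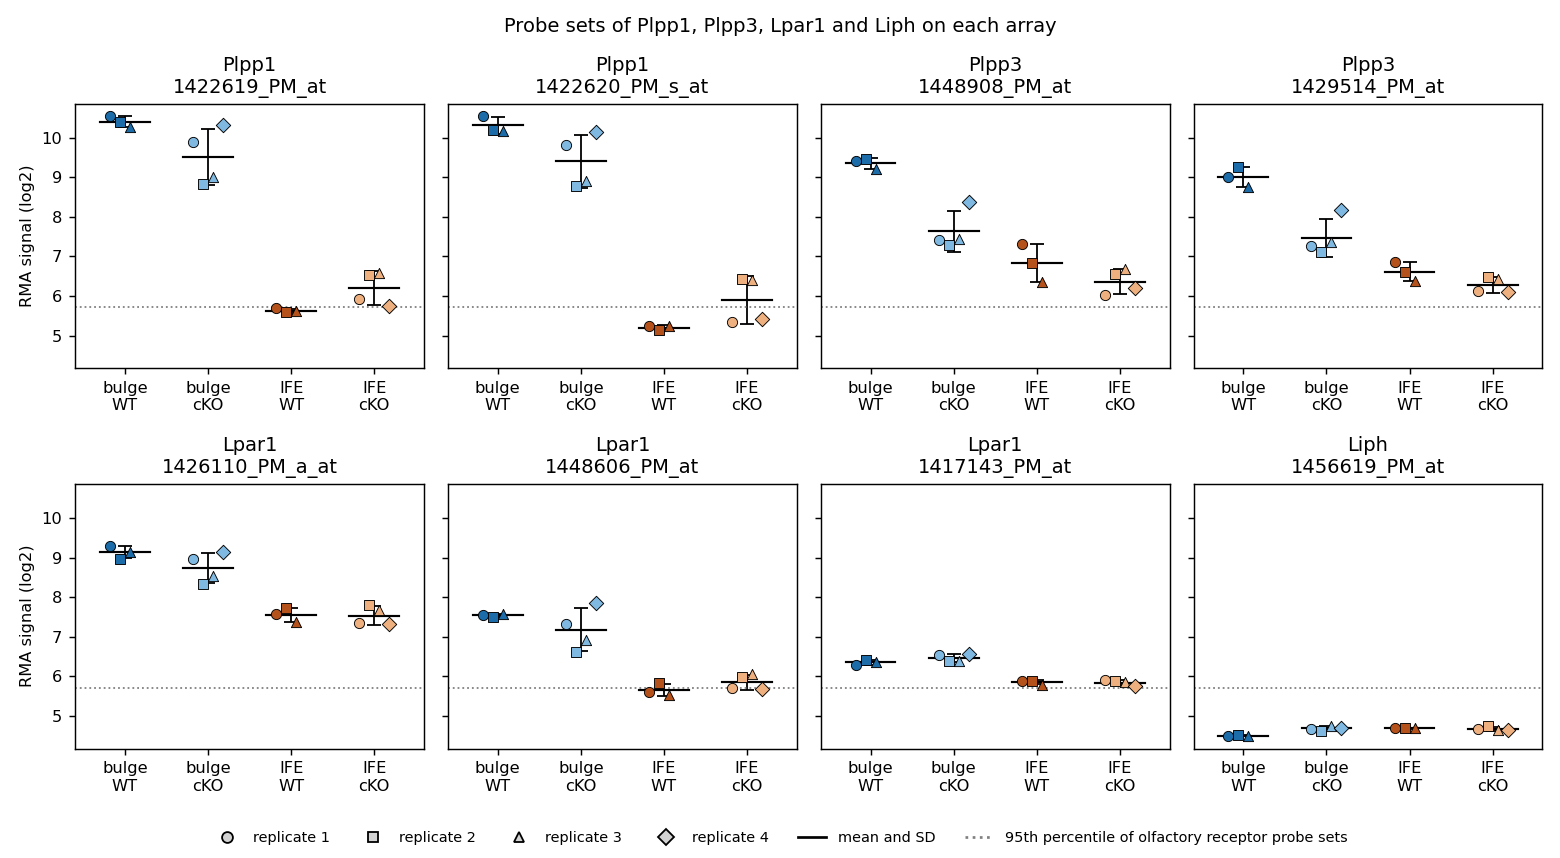
RMA signal (log2) on each array for 8 probe sets of Plpp1, Plpp3, Lpar1 and Liph, with replicate symbols, mean and SD, and the dim level as a dotted line. Both Plpp3 probe sets were lower on every bulge cKO array than on any bulge WT array, and no Lpar1 probe set was.

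The genes whose signals followed these most closely over the 14 arrays, by the mean absolute difference after centring each gene, were found for the 5 whose group means spanned at least 1. For Plpp1 they were Camk4 (0.16), Il31ra (0.20) and Sema3e (0.20). For Plpp3 they were Cyp2d22 (0.26), Spock2 (0.27) and Hoxb5 (0.28). Mpzl1, Hip1 and Tns2 came nearest to Lpar1 (0.09, 0.09 and 0.10), and Mrgprf, Pdzrn4 and Kank2 to Lpar3 (0.13, 0.13 and 0.14). Slc38a9, Zmym6 and Sirt3 came nearest to Lpar6 (0.07, 0.08 and 0.09). A smaller span of a gene allows a smaller distance, so these values do not compare between members.

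Among genes that make or use LPA and phosphatidate, 14 of 15 listed were measured. Of all genes, 18.4% were called higher in bulge than in IFE cells of WT mice and 16.6% lower. Of the 14, 3 were higher and 0 lower. They were Agpat1, an acyltransferase that turns LPA into phosphatidate (0.57 ± 0.12, adjusted p = 0.002651), Agk, a lipid kinase of mitochondria (0.70 ± 0.16, adjusted p = 0.00532), and Acp6, an LPA phosphatase of mitochondria (0.31 ± 0.10, adjusted p = 0.02665). The Acp6 call did not hold under median centring (0.27, adjusted p = 0.05212), in a fit of only the groups compared (adjusted p = 0.08679), or without bulge WT replicate 1 (0.26, adjusted p = 0.1062), bulge WT replicate 2 (0.32, adjusted p = 0.05737) or IFE WT replicate 3 (0.20, adjusted p = 0.1068). Another Agk probe set differed by 0.13 (adjusted p = 0.1408). The median over the list was 0.08. In cKO mice 2 were higher in bulge, where 17.6% of all genes were called higher and 32.1% either way. For G9a loss 0 of the 14 were called in either compartment by limma, with 6 in bulge and 2 in IFE at an unadjusted p under 0.05. Among all genes that share was 25.7% in bulge and 11% in IFE, also for the lists that follow. The share of all genes called for G9a loss was 3.84% in bulge and 0.497% in IFE.

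Of the other lipid phosphate phosphatases and related proteins, 9 of 10 were measured. In WT bulge cells 1 was higher and 1 lower, against 18.4% and 16.6% of all genes. Plppr2 was higher by 0.76 ± 0.12 (adjusted p = 0.000465), and Plpp4 was lower by -0.30 ± 0.05 (adjusted p = 0.0009127), with both of its means dim. In cKO mice 2 were higher in bulge, against 17.6% of all genes. For G9a loss 0 were called, with 0 in bulge and 2 in IFE cells at an unadjusted p under 0.05 in limma.

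The enzymes and receptors of sphingosine 1-phosphate, another lipid that these phosphatases act on, were all measured. Of 10, 1 was higher and 2 were lower in WT bulge cells, against 18.4% and 16.6% of all genes. S1pr5, a receptor, was higher by 1.65 ± 0.21 (adjusted p = 0.0001173), and Sphk1, a kinase that makes the lipid, was lower by -1.27 ± 0.29 (adjusted p = 0.004454). S1pr3, another receptor, read 6.95, 6.85, 6.89 and 7.001 in bulge cKO against 6.32, 6.52 and 6.53 in bulge WT cells. In IFE it read 7.43, 6.91, 6.97 and 7.22 in cKO against 6.47, 6.48 and 6.32 in WT cells. It was higher without G9a by 0.47 ± 0.11 in bulge (adjusted p = 0.03873) and by 0.71 ± 0.11 in IFE (adjusted p = 0.01151), with no overlap in either. The IFE call did not hold without IFE WT replicate 1 (0.73, adjusted p = 0.05265) or replicate 3 (0.66, adjusted p = 0.05159). The bulge call was lost in 10 of 14 omissions of a single array, at differences within 0.40 to 0.50 and adjusted p up to 0.1661; without bulge cKO replicates 2 and 3 it was 0.52 (adjusted p = 0.1863). In a fit of only the groups compared neither passed (adjusted p = 0.05216 in bulge and 0.1249 in IFE).

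Among genes that couple LPA receptors to the cell, or follow LPAR6 to the EGF receptor, 17 of 19 were measured. In WT bulge cells 2 were higher and 6 lower, against 18.4% and 16.6% of all genes. The list median was -0.15. Gnai1, a subunit of the inhibitory G protein, was lower by -1.54 ± 0.20 (adjusted p = 0.0001318), and Arhgef12, a RhoA exchange factor downstream of G proteins, was higher by 0.40 ± 0.04 (adjusted p = 3.142e-05). In cKO mice 1 was higher and 7 were lower in bulge, where 3007 of 17097 genes were called higher and 2489 lower. Arhgef12 was also the 1 gene called lower in bulge cKO than in bulge WT cells, by -0.24 ± 0.04 (adjusted p = 0.009667), a call not kept without bulge WT replicate 1 (-0.22, adjusted p = 0.06123), without bulge cKO replicates 2 and 3 (-0.23, adjusted p = 0.09655) or in a fit of only the groups compared (adjusted p = 0.09308). Its difference of effects was -0.35 ± 0.06 (adjusted p = 0.04399), a call lost in 13 of 14 omissions of a single array, with adjusted p up to 0.1529. Lpar5 was not measured. In IFE 0 were called for G9a loss in limma, with 3 at an unadjusted p under 0.05.

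Of the SRF and YAP target genes that LPA is known to induce in cultured cells, 8 of 11 were measured. In WT bulge cells 2 were higher and 4 lower, against 18.4% and 16.6% of all genes. The list median was -0.38. Ccn2, a secreted matrix-associated protein, was higher in bulge by 3.12 ± 0.33 (adjusted p = 3.495e-05), while Srf was lower by -1.18 ± 0.18 (adjusted p = 0.0004092). Ccn2 read 7.60, 6.34, 6.76 and 7.81 in bulge cKO against 8.55, 8.21 and 8.66 in bulge WT cells. It was the 1 gene of the list called for G9a loss in bulge, at -1.35 ± 0.31 (adjusted p = 0.03761). Without bulge cKO replicates 2 and 3 that was -0.77 (adjusted p = 0.2249), and 8 of 14 omissions of a single array lost the call, with adjusted p up to 0.1458 and differences within -1.48 to -1.08. A fit of only the groups compared lost it too (adjusted p = 0.1441). In IFE 0 of the 8 were called in limma, with 1 at an unadjusted p under 0.05.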

How the data were processed

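Per the labels, TRizol-extracted RNA was amplified, biotinylated and read on Affymetrix arrays. The authors deposited 1 log2 signal for each probe set and array, summarised with RMA per the submitters' processing notes (version not stated there). RMA equalises the distribution of signals between arrays, so differences are relative to the other genes. Arrays have no read depth, and their number limits the precision; array medians lay between 5.76 and 5.84.

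Of 45141 probe sets, 28898 had a single symbol, 551 several and 15692 none. Each of 17097 genes was represented by its probe set of highest mean. All 14 arrays entered a single limma 3.58.1 fit in R 4.3.3 (a mean per group, eBayes without trend), with two-sided tests and Benjamini-Hochberg adjustment over all genes at 0.05. Errors after ± are standard errors of that fit. The script was tested on simulated data.

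The genes, the lists and the tests were chosen with earlier results of these data known. The named genes are all members, up to 3 called genes with the smallest p per list and comparison, and the 3 nearest genes by pattern. S1pr3 and Ccn2 are given per array because of their values. Alternatives covered scaling, probe set choice, dim probe sets, model form, a fold minimum, a replicate block and omitted arrays. Over all genes, the deviations of bulge and IFE samples with the same number correlated at 0.04 to 0.25 in WT and -0.57 to 0.15 in cKO. This does not decide whether they pair, and numbers were not taken as pairs. The T cell marker mean was highest on cKO replicates 2 and 3 in both compartments (6.23 and 6.32 in bulge, 6.15 and 6.18 in IFE). Whether samples with one number share a source is not stated and was not tested. Figures were drawn with matplotlib 3.10.9.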

Additional observations from a re-analysis of the deposited data

Results flagged for a closer look

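Bulge cKO replicate 4 stood apart from the other 3 arrays of its group for Plpp3, at 8.39 against 7.29 to 7.43; its gap was 0.869 of the range of the group. It stood apart for Plpp2 as well, at 10.34 against 10.20 to 10.22, with a gap of 0.858 of the range, although that range is small. Both gaps were above the 95% critical value of Dixon's test for 4 samples. The test was made on 18 groups of 4 arrays, 2 were above the value, and chance alone puts about 1 in 20 there.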

How the results depend on the processing

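The 9 measured genes kept the direction of their called differences under the alternatives tried, with 0 reversals among them. Of their differences and alternatives, 1271 kept their side of the threshold, 21 newly passed it and 13 no longer did. Plpp3 in bulge cKO against WT lay between -1.98 and -1.61 when a single array was left out, and at -1.45 without bulge cKO replicates 2 and 3; the counts of members below include it and Plpp1, whose differences were known. A single gene of the lists reversed, Plppr1 between the cKO compartments, at -0.018 on one of its other probe sets. Array weights, whose estimation did not fully converge, gave 10318 called genes and 8 of these 9 between the cKO compartments, 8242 and 6 for G9a loss in bulge, 1458 genes in IFE, and 4974 and 5 for the difference of effects. A fold minimum of 1.5 left 2848 genes between WT compartments, 1670 between cKO compartments, 224 in bulge, 53 in IFE and 11 for the difference of effects. Fitting only the groups compared gave 72 genes and 0 members in bulge and 48 genes in IFE. Testing every probe set gave 2 members in bulge and 28 genes for the difference of effects, and leaving out dim probe sets gave 6 genes there. Without bulge cKO replicates 2 and 3 there were 116 genes and 0 members in bulge and 3 genes for the difference of effects; without those of both compartments, 80 and 0 in bulge, 41 in IFE and 3 for the difference. Leaving out a single array gave 4805 to 6197 genes and 5 to 6 members between WT compartments, 4105 to 5792 and 4 to 5 between cKO compartments, 116 to 2558 and 1 to 3 in bulge, 38 to 107 and 0 in IFE, and 3 to 242 and 0 to 2 for the difference of effects.

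With the replicate number as a block, 412 genes were called in bulge, 33 in IFE and 2 for the difference of effects, and the calls of the 9 genes were as without it. Ccn2 in bulge (-1.42, adjusted p = 0.06464) and S1pr3 in bulge and IFE (0.44 and 0.68, adjusted p = 0.07046 and 0.07838) did not pass there. Over all genes, samples that shared a number correlated, in their deviations from the group means, between -0.616 and 0.251. That range includes pairs of unlike genotype. Between WT bulge and WT IFE samples the correlations were 0.25, 0.04 and 0.14. Between the cKO compartments they were -0.03, 0.11, -0.57 and 0.15. These values do not decide whether samples with the same number share a source. No pairing is stated, so the numbers were not taken to pair samples. Signals near the dim level limit what can be said of Liph, Lpar3 in IFE and Lpar4.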
